A study of Mus musculus with 4 samples.

Results

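Lung RNA-Seq of mice was examined for 10 CC chemokine ligands, the secreted proteins Ccl2, Ccl3, Ccl4, Ccl5, Ccl6, Ccl7, Ccl9, Ccl11, Ccl17 and Ccl22. They were chosen by gene symbol from the 17780 genes of the expression table, which lists 22 genes with a Ccl symbol, and all 10 were present with at least 20 estimated reads over the libraries. The study treated male mice of strain C57BL/6J by the methods and C57BL/6 by the sample labels, bought at 6 to 7 weeks of age, with vehicle, with the antiarrhythmic drug amiodarone at 300 mg per kg, with dabigatran etexilate, an oral prodrug of the thrombin inhibitor dabigatran, at 60 mg per kg, or with amiodarone + dabigatran at the same doses. Drugs were given by mouth 5 times per week for 4 weeks, and the groups share strain, sex and housing. The methods date the lungs to day 26 and the sample labels give 28 days. Each group had 1 library, made from poly(A)+ RNA of lung, and how many animals stand behind a library is not given in the sources used here. A treatment therefore cannot be told apart from whatever else set its library apart, and no difference has a replicate check.

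Estimated reads on genes summed to between 17498486 and 18903401 per library. Levels are FPKM, read fragments divided by transcript length and by library depth, so that levels of different genes can be compared. Ratios are ratios of FPKM, and the range in brackets after a ratio is its exact Clopper-Pearson 95% interval from the reads of both libraries. Where that interval leaves out 1, the libraries are said to differ beyond counting error. The intervals cover counting error only, compare libraries and not treatments, and take sequenced fragments as independent molecules. In whole lung, fewer cells of a type and less RNA per cell cannot be told apart. The surfactant gene Sftpc, which marks alveolar cells of the lung, stood between 19587 and 20385 FPKM. Other lung genes were less steady. Of 6 alveolar markers, 4 were higher with amiodarone than with vehicle beyond counting error, Sftpa1 the most at a ratio of 1.36. Sftpc was the 1 lower, at 0.976. Among all genes with at least 20 reads, 17.8% were higher and 27.8% lower in this comparison. Such markers have many reads and can pass at small ratios, as Ager did at 1.017 (1.005 to 1.029). The airway gene Scgb1a1 ranged between 73994 and 124168 FPKM, lowest with amiodarone and highest with vehicle. The narrow range of Sftpc therefore does not show an equal cell make-up of the libraries.

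CC chemokines are small proteins named for a pair of adjacent cysteines. They bind receptors of the Ccr family on leukocytes, which couple to G proteins of the Gi class and steer cells along a gradient of ligand. Several ligands share a receptor and several receptors share a ligand, and atypical receptors of the Ackr family bind ligand and remove it without moving the cell. In the lung, macrophages, epithelium, lymphocytes and dendritic cells are known sources. Among the ligands here, Ccl3, Ccl5, Ccl6 and Ccl9 are ligands of Ccr1, Ccl2 and Ccl7 of Ccr2, Ccl11 of Ccr3, and Ccl17 and Ccl22 of Ccr4.

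The 10 genes lie in 3 groups on the mouse genome (GRCm38.p6, RefSeq coordinates). Ccl2, Ccl7 and Ccl11 lie within 27.4 kb of chromosome 11 on the plus strand. Ccl5, Ccl9, Ccl6, Ccl3 and Ccl4 lie within 138.9 kb further along the same chromosome, Ccl4 on the plus strand and the others on the minus strand. Ccl22 and Ccl17 lie within 66.4 kb of chromosome 8 on the plus strand. Ccl6 and Ccl9 have 4 exons in the GENCODE release M21 transcript examined and the other 8 ligands have 3. The RefSeq spans of Ccl3 and Ccl4 overlap by 755 bases (chr11:83648624-83649378) on opposite strands, and whether the counting used strand is not given in the sources used here, so how reads from that stretch were assigned is not known.

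Together the 10 ligands took 0.0147% of the estimated reads with vehicle (95% exact binomial interval 0.0141 to 0.0153), 0.0518% with amiodarone (0.0508 to 0.0529), 0.0173% with dabigatran (0.0167 to 0.0179) and 0.0559% with amiodarone + dabigatran (0.0549 to 0.0570). The share was lower in the libraries without amiodarone than in those with it. Most of that gap lay in a single gene. Ccl6 supplied 52.0% of the ligands' reads with vehicle and 52.2% with dabigatran, but 80.4% with amiodarone and 81.5% with the combination. Without Ccl6, the summed FPKM of the other 9 was 85.4 with vehicle and 128, 129 and 127 with amiodarone, dabigatran and the combination. Ccl5 made up most of each sum, at 51.6, 67.3, 101 and 78.6 FPKM in the same order. The closeness of the drug libraries in this sum therefore does not hold for the single ligands. With dabigatran, 6 of the 10 were lower than with vehicle and 4 were higher, while 49.9% of all genes were higher. Beyond counting error 3 were lower and 3 higher, beside 12.2% and 13.8% of all genes.

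**Figure D1:**
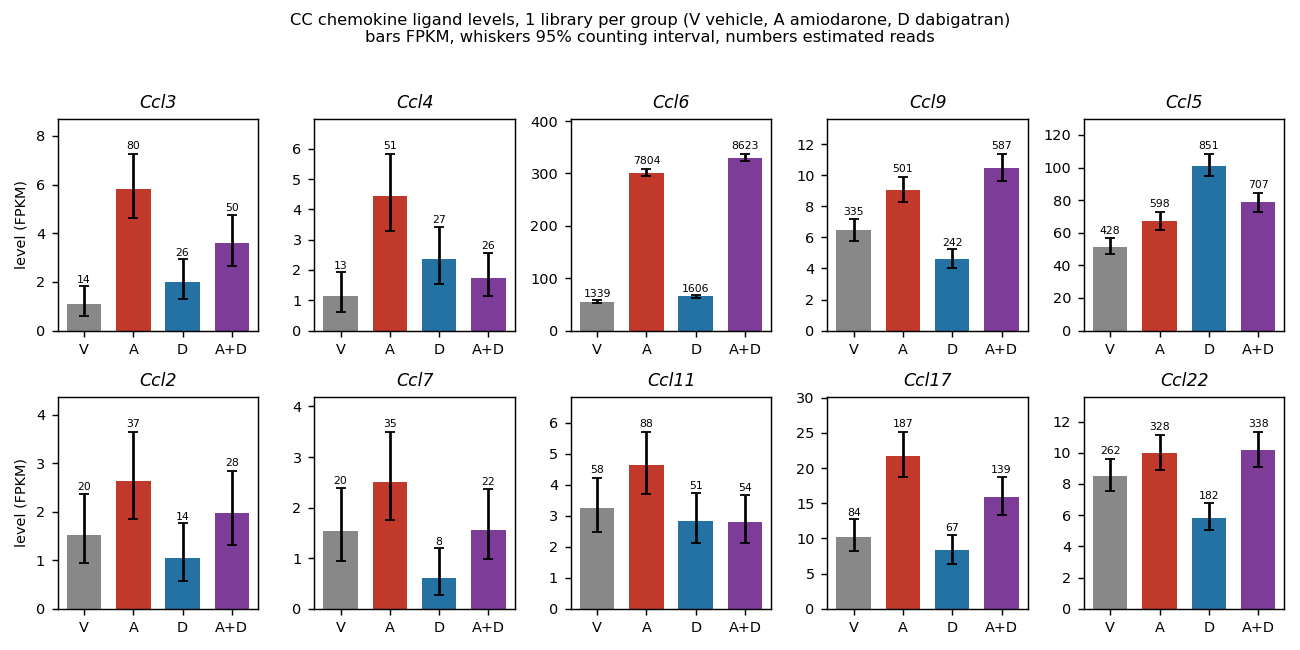
Level in FPKM (linear axis from 0, scaled for each gene) of the 10 ligands with vehicle (V), amiodarone (A), dabigatran (D) and both (A+D), as 1 bar per library with the exact Poisson 95% counting interval as whiskers and the estimated reads as numbers above. The bars of Ccl6 separate the libraries with amiodarone (302 and 330 FPKM) from those without it (55.4 and 65.6 FPKM), and Ccl5 has its tallest bar with dabigatran (101 FPKM).

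The ligands differed widely in level. With vehicle, Ccl6 stood at 55.4 FPKM and Ccl5 at 51.6 FPKM, and their counting intervals overlap, so their order is not settled by the reads. Ccl17 (10.3 FPKM) and Ccl22 (8.52 FPKM) came next and also overlap, followed by Ccl9 (6.47 FPKM) and Ccl11 (3.26 FPKM), which lie apart from their neighbours. Ccl7, Ccl2, Ccl4 and Ccl3 formed the bottom of the order between 1.54 and 1.09 FPKM, each overlapping the next. With amiodarone, Ccl6 reached 302 FPKM and lay apart from Ccl5 at 67.3 FPKM. Ranked with all genes of the table, Ccl6 moved from the level below which 92.3% of genes lie with vehicle to that below which 98.8% lie with amiodarone.

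Amiodarone was set against vehicle to ask which ligands differ in the lung given amiodarone. All 10 ligands had the higher value with amiodarone, 7 of them beyond counting error, namely Ccl3, Ccl4, Ccl5, Ccl6, Ccl9, Ccl11 and Ccl17. Over the 15341 genes with at least 20 reads, 17.8% were higher beyond counting error and 27.8% were lower, while no ligand was lower. At least 2-fold higher were 4 ligands, Ccl6, Ccl3, Ccl4 and Ccl17, against 3.59% of all genes, and none was at least 2-fold lower, against 3.70%. The median ratio of the ligands was 1.68, a log2 ratio of 0.75, beside a median log2 ratio of -0.06 over all genes.

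Dabigatran alone was set against vehicle to describe lungs given the thrombin inhibitor without amiodarone. Here the ligands split. Ccl4, Ccl5 and Ccl6 were higher beyond counting error, as were 13.8% of all genes, and Ccl7, Ccl9 and Ccl22 were lower, as were 12.2% of all genes. The other 4 lay within counting error. Of the ligands, 1 was at least 2-fold higher (Ccl4, with 1.39% of all genes) and 1 at least 2-fold lower (Ccl7, with 1.36% of all genes). The median ratio was 0.838, a log2 ratio of -0.26, beside 0 over all genes.

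The combination was set against amiodarone to ask whether adding dabigatran is accompanied by different ligand levels. Ccl3, Ccl4, Ccl11 and Ccl17 were lower beyond counting error, as were 13.6% of all genes, and Ccl5, Ccl6 and Ccl9 were higher, as were 19.2% of all genes. Ccl4 was the 1 ligand at least 2-fold lower by FPKM (1.63% of all genes), and none was at least 2-fold higher (2.03% of all genes). The median ratio was 0.737, a log2 ratio of -0.44, beside 0.04 over all genes.

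Against dabigatran alone, the combination shows amiodarone on a background of dabigatran. Ccl3, Ccl6, Ccl7, Ccl9, Ccl17 and Ccl22 were higher beyond counting error, as were 17.7% of all genes, and Ccl5 was lower, as were 21.8% of all genes. At least 2-fold higher were 3 ligands, Ccl6, Ccl7 and Ccl9, against 2.93% of all genes, and none was at least 2-fold lower, against 2.57%. The median ratio was 1.84, a log2 ratio of 0.88, beside -0.02 over all genes. This comparison and that of amiodarone with vehicle share no library, nor do the other 2. All other pairs of comparisons share 1 library, so their values are given side by side and not related to each other.

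**Figure D2:**
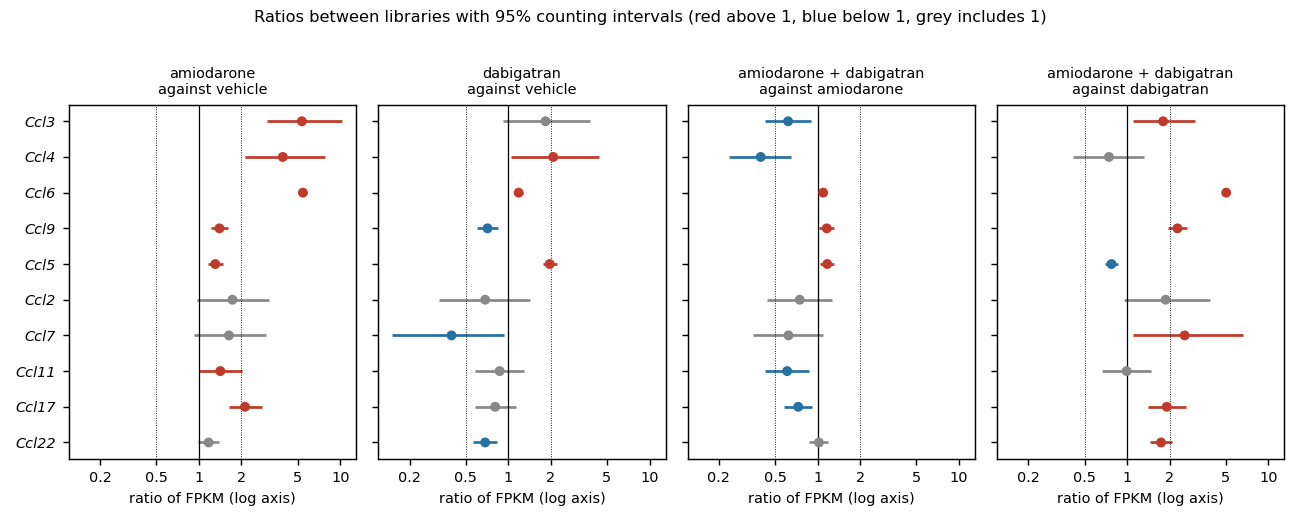
Ratio of FPKM (log axis) of each ligand in the 4 comparisons, as points with exact Clopper-Pearson 95% counting intervals as lines, red where the interval lies above 1, blue where it lies below and grey where it includes 1. Ccl6 lies at 5.45 and 5.03 where a library with amiodarone is set against one without it and at 1.18 and 1.09 elsewhere, and the intervals of Ccl2, Ccl7, Ccl3 and Ccl4 are wide.

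**Figure D3:**
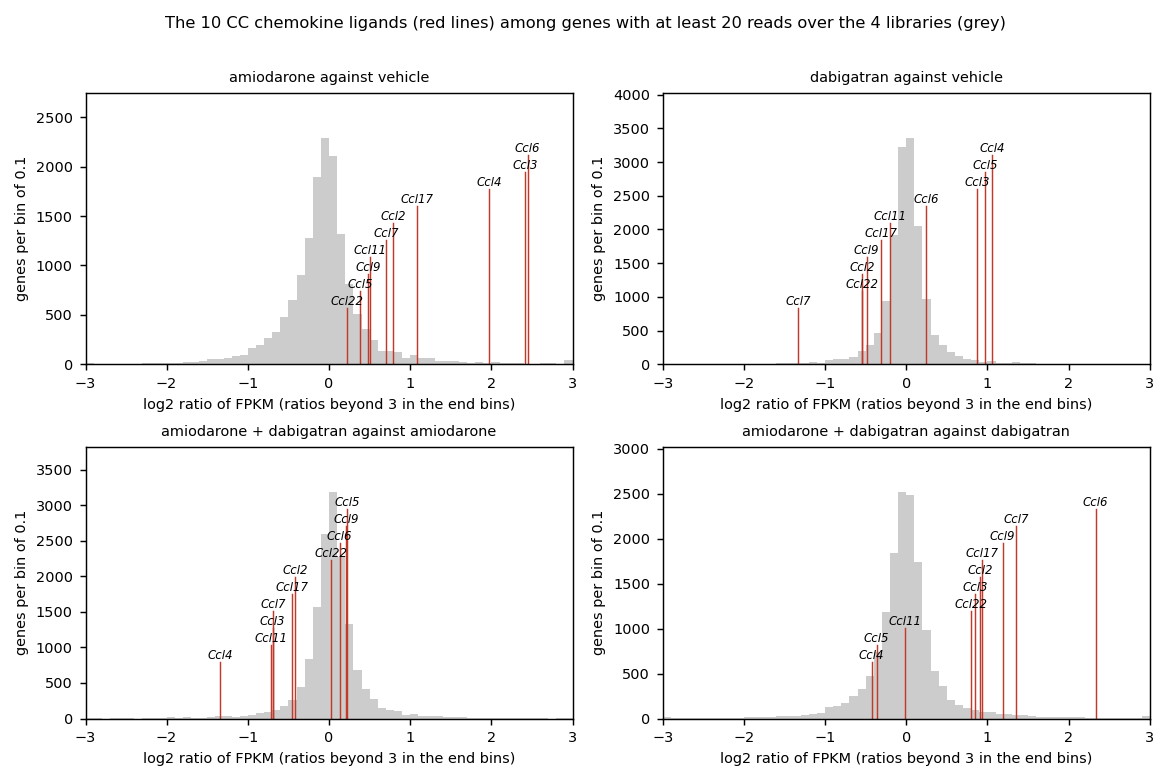
Number of genes (of the 15341 with at least 20 reads) per bin of log2 FPKM ratio in each of the 4 comparisons, with the 10 ligands as red lines whose height has no meaning and ratios beyond the axis placed in the end bins. With amiodarone against vehicle all 10 lines lie to the right of 0, and in the other 3 comparisons they lie on both sides.

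Ccl6 and Ccl9 are rodent chemokines made largely by myeloid cells, both ligands of Ccr1, and lie next to each other on the minus strand of chromosome 11. Promoter sequences in the RefSeq table cover 5 of the 10 ligands (Ccl3, Ccl6, Ccl9, Ccl17 and Ccl22, with Ccl2, Ccl4, Ccl5, Ccl7 and Ccl11 missing). The 160 bases before the start of Ccl6 (chr11:83593088-83593247, minus strand) and of Ccl9 (chr11:83578637-83578796, minus strand) are shown because both neighbours were higher with amiodarone than with vehicle, by different amounts. Capitals mark exact words of at least 8 letters that occur in both windows.
Ccl6: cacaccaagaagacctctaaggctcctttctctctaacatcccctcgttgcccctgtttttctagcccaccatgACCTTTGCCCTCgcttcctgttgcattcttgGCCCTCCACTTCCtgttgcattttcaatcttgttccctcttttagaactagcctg
Ccl9: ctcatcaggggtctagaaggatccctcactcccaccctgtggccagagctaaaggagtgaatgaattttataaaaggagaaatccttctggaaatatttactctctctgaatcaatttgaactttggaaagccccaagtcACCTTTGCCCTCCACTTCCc
The shared words cover 25 bases of the Ccl6 window and 19 of the Ccl9 window, the longest 13 bases long. The other 9 pairs among the 5 promoters share at most 17 bases, with no word longer than 9.

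A set of 6 short motifs, those for TATA, NF-kB, AP-1, STAT, Stat6 and ETS, was searched on both strands in the 250 bases before the start and 50 after it, over 32851 promoters of the table. The Ccl9 window held TATAAA (13.6% of all promoters) 3 times, the NF-kB motif, GGG and TT with 2 free bases between them followed by 1 free base and CC (4.79%), and the AP-1 motif TGANTCA (7.81%). Of its TATAAA matches, 2 overlap each other on opposite strands. The Ccl6 window held the ETS core AGGAAG (35.4%) at 2 places, both read on the other strand. A match is a run of letters and was not tested as a binding site.

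Ccl6 stood at 55.4 FPKM (1339 reads) with vehicle, 302 FPKM (7804 reads) with amiodarone, 65.6 FPKM (1606 reads) with dabigatran and 330 FPKM (8623 reads) with amiodarone + dabigatran. Both libraries with amiodarone were high and both without it were low, and no counting intervals of the 4 overlap. The ratio was 5.45 (5.14 to 5.77) for amiodarone against vehicle and 5.03 (4.77 to 5.31) for the combination against dabigatran. Dabigatran went with small further differences, 1.18 (1.10 to 1.27) against vehicle and 1.09 (1.06 to 1.13) when added to amiodarone. With the most reads of the 10, Ccl6 is the ligand whose ratios are known most closely.

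Ccl9 was likewise high in both libraries with amiodarone, at lower levels. It stood at 6.47 FPKM (335 reads) with vehicle, 9.04 FPKM (501 reads) with amiodarone, 4.61 FPKM (242 reads) with dabigatran and 10.5 FPKM (587 reads) with the combination. The ratio was 1.40 (1.21 to 1.61) for amiodarone against vehicle and 2.28 (1.96 to 2.65) for the combination against dabigatran. Ccl9 was lower with dabigatran than with vehicle, at a ratio of 0.713 (0.601 to 0.843), and higher with the combination than with amiodarone, at 1.16 (1.03 to 1.31). Of the 2996 stretches of 50 bases in its transcript, 1.97% also occur in transcripts of other genes, and its estimated reads were not whole in 2 libraries. None of the other 9 ligands shared such a stretch.

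Ccl3 and Ccl4, the macrophage inflammatory proteins 1 alpha and beta, are released early by activated macrophages and lymphocytes. Ccl3 had 1.09 FPKM (14 reads) with vehicle, 5.83 FPKM (80 reads) with amiodarone, 2.0 FPKM (26 reads) with dabigatran and 3.60 FPKM (50 reads) with the combination. It was highest with amiodarone, and neighbouring libraries in that order overlap. The ratio of amiodarone to vehicle was 5.35 (3.01 to 10.2), close to that of Ccl6 but resting on far fewer reads. The combination had 0.617 (0.425 to 0.890) of the amiodarone level and 1.80 (1.10 to 3.01) times the dabigatran level, and dabigatran against vehicle lay within counting error at 1.83 (0.924 to 3.80). The Ccl3 promoter window matched none of the motifs.

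Ccl4 had 1.13 FPKM (13 reads) with vehicle, 4.43 FPKM (51 reads) with amiodarone, 2.35 FPKM (27 reads) with dabigatran and 1.75 FPKM (26 reads) with the combination. Like Ccl3 it was highest with amiodarone, at a ratio to vehicle of 3.92 (2.10 to 7.86). It was also higher with dabigatran than with vehicle, at 2.08 (1.04 to 4.39). Its level with the combination was 0.395 (0.236 to 0.646) of that with amiodarone, and 0.745 (0.418 to 1.33) of that with dabigatran, within counting error. The transcript length implied by reads and FPKM ranged from 615 to 786 bases over the libraries for Ccl4, a factor of 1.28, and by at most a factor of 1.03 for the other ligands. From reads scaled to the library total, which use no length, the ratio of the combination to amiodarone was 0.505.

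Ccl5, known as RANTES, is made by T lymphocytes, natural killer cells and platelets and binds Ccr1 and Ccr3. It was the 1 ligand with its highest level under dabigatran alone: 51.6 FPKM (428 reads) with vehicle, 67.3 FPKM (598 reads) with amiodarone, 101 FPKM (851 reads) with dabigatran and 78.6 FPKM (707 reads) with the combination. Dabigatran stood apart above the other 3 libraries and vehicle apart below them. The ratio was 1.96 (1.75 to 2.21) for dabigatran against vehicle, 1.30 (1.15 to 1.48) for amiodarone against vehicle and 1.17 (1.05 to 1.31) for the combination against amiodarone. Against dabigatran, the combination had 0.777 (0.702 to 0.859) of the level.

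Ccl2 and Ccl7, the monocyte chemoattractant proteins 1 and 3, draw Ccr2-bearing monocytes out of the blood. Both had few reads in every library. Ccl2 had 1.53 FPKM (20 reads) with vehicle, 2.64 FPKM (37 reads) with amiodarone, 1.05 FPKM (14 reads) with dabigatran and 1.97 FPKM (28 reads) with the combination. All 4 of its ratios lay within counting error, at 1.73 (0.976 to 3.14) for amiodarone against vehicle, 0.686 (0.321 to 1.43) for dabigatran against vehicle, 0.746 (0.440 to 1.25) for the combination against amiodarone and 1.88 (0.955 to 3.86) for the combination against dabigatran. With scaling by the median ratio of all genes, amiodarone against vehicle lay just beyond counting error, at 1.78 (1.01 to 3.25). The paper, from 1 sample per group and without statistics, lists Ccl2, Ccl3, Ccl4 and Ccl11 among genes raised by amiodarone and reversed by dabigatran. It called genes by the sign of a standardized difference. The directions found here were the same, but those of Ccl2 lay within counting error by the main ratios.

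Ccl7 had 1.54 FPKM (20 reads) with vehicle, 2.51 FPKM (35 reads) with amiodarone, 0.61 FPKM (8 reads) with dabigatran and 1.56 FPKM (22 reads) with the combination. It was lowest with dabigatran, at 0.396 (0.151 to 0.939) of vehicle, and the combination was 2.56 (1.10 to 6.64) times dabigatran. Amiodarone against vehicle (1.63, 0.915 to 2.98) and the combination against amiodarone (0.622, 0.347 to 1.09) lay within counting error. These ratios rest on 8 reads in the dabigatran library.

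Ccl11, or eotaxin, attracts eosinophils through Ccr3. It had 3.26 FPKM (58 reads) with vehicle, 4.62 FPKM (88 reads) with amiodarone, 2.83 FPKM (51 reads) with dabigatran and 2.81 FPKM (54 reads) with the combination. Amiodarone was the high library. The ratio to vehicle was 1.42, with an interval that only just leaves out 1 (1.01 to 2.01), and the combination had 0.608 (0.425 to 0.863) of the amiodarone level. The values with dabigatran and with the combination differed by less than counting error, at 0.993 (0.665 to 1.49). Ccr3, its receptor, had at most 3 reads in any library, and the eosinophil granule gene Prg2 had 0 reads in 2 libraries. Il5ra, the 1 eosinophil marker with at least 20 reads, was lower with amiodarone than with vehicle, at 0.25 (0.083 to 0.636). It was also lower with the combination than with dabigatran, at 0.50 (0.241 to 0.993). Its other ratios lay within counting error, and it had 5.85 to 26 reads per library.

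Ccl17 and Ccl22 are the ligands of Ccr4, made mainly by dendritic cells and macrophages and induced by interleukin 4 through Stat6. The 160 bases before the starts that the promoter table gives (Ccl17 at chr8:94810293-94810452 and Ccl22 at chr8:94745524-94745683, both on the plus strand) are shown because the windows of this pair hold different motifs. The Ccl17 window lies inside the RefSeq span of the gene, which begins at chr8:94809380. The 2 sources thus differ on the start of Ccl17, and the window is not upstream of the whole span. The Ccl22 window ends just before its span. Capitals mark matches to the motifs searched.
Ccl17: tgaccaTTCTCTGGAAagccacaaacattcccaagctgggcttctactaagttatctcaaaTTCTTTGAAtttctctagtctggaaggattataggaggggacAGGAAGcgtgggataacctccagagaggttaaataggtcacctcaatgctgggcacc
Ccl22: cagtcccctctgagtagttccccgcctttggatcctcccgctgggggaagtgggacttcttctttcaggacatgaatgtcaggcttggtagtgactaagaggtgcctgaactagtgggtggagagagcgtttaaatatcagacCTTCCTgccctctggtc
The Ccl17 window held the Stat6 motif, TTC and GAA with 4 free bases between them, as TTCTCTGGAA (6.95% of all promoters hold the motif), the general STAT motif TTCNNNGAA as TTCTTTGAA (8.30%) and the ETS core AGGAAG. The Ccl22 window held the ETS core alone, read on the minus strand. These are matches of letters only.

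Ccl17 had 10.3 FPKM (84 reads) with vehicle, 21.8 FPKM (187 reads) with amiodarone, 8.29 FPKM (67 reads) with dabigatran and 15.8 FPKM (139 reads) with the combination. The libraries with amiodarone were high and those without it low, with intervals that do not overlap. The ratio was 2.12 (1.63 to 2.77) for amiodarone against vehicle and 1.91 (1.42 to 2.60) for the combination against dabigatran. The combination had 0.728 (0.580 to 0.912) of the amiodarone level, and dabigatran against vehicle lay within counting error at 0.807 (0.577 to 1.13).

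Ccl22 varied less. It had 8.52 FPKM (262 reads) with vehicle, 9.97 FPKM (328 reads) with amiodarone, 5.84 FPKM (182 reads) with dabigatran and 10.2 FPKM (338 reads) with the combination. Dabigatran was the low library, at 0.685 (0.564 to 0.831) of vehicle, and the combination was 1.74 (1.45 to 2.10) times dabigatran. Amiodarone against vehicle (1.17, 0.992 to 1.38) and the combination against amiodarone (1.02, 0.874 to 1.19) lay within counting error. Between the highest and the lowest library Ccl22 differed by a factor of 1.74 and Ccl17 by a factor of 2.62, while the range over the 10 ligands ran from 1.64 for Ccl11 to 5.96 for Ccl6.

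Of the 10 CC receptors, all of which are in the table, 8 had at least 20 reads. With amiodarone 3 of them were higher than with vehicle beyond counting error and 1 was lower, beside 17.8% and 27.8% of all genes. Ccr1, the receptor of Ccl3, Ccl5, Ccl6 and Ccl9, stood at 1.93 FPKM with vehicle, 8.26 FPKM with amiodarone, 1.48 FPKM with dabigatran and 6.29 FPKM with the combination. Like Ccl6 it was high in both libraries with amiodarone, at 4.28 (3.42 to 5.41) times vehicle and, for the combination, 4.25 (3.29 to 5.55) times dabigatran.

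Ccr2, the monocyte receptor of Ccl2 and Ccl7, differed less, at 1.60 (1.43 to 1.78) times vehicle with amiodarone. Ccr7, which guides dendritic cells and lymphocytes to lymph nodes and binds none of the 10 ligands, was lower at 0.75 (0.64 to 0.88). Ccr4, the receptor of Ccl17 and Ccl22, stayed at or below 0.23 FPKM in every library, and is named here as their receptor after its values were seen, as is Ccr3. In the other comparisons the receptors beyond counting error were 0 higher and 2 lower for dabigatran against vehicle, 1 and 1 for the combination against amiodarone, and 2 and 0 for the combination against dabigatran. The shares of all genes were 13.8% and 12.2%, 19.2% and 13.6%, and 17.7% and 21.8% in the same order. They also stand beside the counts of the lists that follow.

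All 5 atypical and scavenging receptors had enough reads. With amiodarone 3 were higher than with vehicle beyond counting error and 1 was lower, beside 17.8% and 27.8% of all genes. Ackr2, which scavenges inflammatory CC ligands including Ccl2 and Ccl5, stood at 15.8 FPKM with vehicle, 29.9 FPKM with amiodarone, 17.7 FPKM with dabigatran and 24.1 FPKM with the combination. Ackr4, which scavenges the Ccr7 ligands, went the other way, with 5.09 FPKM, 1.48 FPKM, 4.47 FPKM and 2.31 FPKM in the same order. Its ratio of amiodarone to vehicle was 0.29 (0.21 to 0.39). The counts beyond counting error were 3 higher and 0 lower for dabigatran against vehicle, 1 and 3 for the combination against amiodarone, and 1 and 1 for the combination against dabigatran.

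Genes that carry the signal inside the responding cell were also listed, 10 in all. With amiodarone 9 were higher than with vehicle beyond counting error and 0 were lower, beside 17.8% and 27.8% of all genes. The median ratio was 1.18 and 0 were at least 2-fold apart. Genes with many reads pass at small ratios, as Gnai2 did at 1.03 (1.01 to 1.05). Pik3r5, a regulatory subunit of the phosphoinositide 3-kinase that G proteins activate, had the highest ratio, at 1.97 (1.69 to 2.30). The counts were 5 higher and 0 lower for dabigatran against vehicle, 3 and 2 for the combination against amiodarone, and 5 and 0 for the combination against dabigatran. Of 11 regulators of chemokine genes, 5 were higher and 3 lower with amiodarone than with vehicle beyond counting error, beside the same shares of all genes. Il4ra, the interleukin 4 receptor chain upstream of Stat6, was 1.75 times vehicle and Bcl3, an atypical NF-kB inhibitor, 1.74 times vehicle, while the NF-kB subunit Rel was lower at 0.52. The counts were 1 higher and 3 lower for dabigatran against vehicle, 1 and 5 for the combination against amiodarone, and 5 and 1 for the combination against dabigatran.

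A list of 11 other CC ligands was examined in the same way. Ccl26 is not in the table and 8 had at least 20 reads. With amiodarone against vehicle the 1 ligand beyond counting error was Ccl8, of the monocyte chemoattractant group, at 2.42 (1.56 to 3.85). Its level was 3.65 FPKM with vehicle, 8.83 FPKM with amiodarone, 4.98 FPKM with dabigatran and 4.54 FPKM with the combination, high with amiodarone alone. None of the 8 differed beyond counting error in the 2 comparisons that have dabigatran alone as one side. With the combination against amiodarone 1 was higher, Ccl21a at 1.08 (1.01 to 1.15), and 3 were lower, Ccl8 at 0.514 (0.340 to 0.767), Ccl12 at 0.410 (0.175 to 0.890) and Ccl28 at 0.493 (0.295 to 0.807). Ccl19, a Ccr7 ligand left out for its few reads, had 0 reads in 3 libraries, each of which allows up to 3, and 10.3 reads with the combination. Ccl12, Ccl19, Ccl21a and Ccl28 were named after their values were seen.

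Markers of the leukocytes that make or follow these ligands differed between the same libraries, and their part in the ligand levels was not tested. The summed FPKM of 9 macrophage markers was 126 with vehicle, 220 with amiodarone, 131 with dabigatran alone and 236 with both drugs, and 8 of the 9 were higher with amiodarone than with vehicle beyond counting error. Over all genes 17.8% were higher in this comparison and 27.8% lower. For 5 monocyte markers the sums were 126, 238, 141 and 215 in the same order, with 4 higher and 1 lower. For 8 neutrophil markers, 7 of them with at least 20 reads, they were 91, 588, 68.5 and 425, with 6 higher. Ccl6 thus had the same high and low libraries as the sums of all 3 myeloid lists, though not every gene in them did. Marco was 2.66 times vehicle with dabigatran alone. Cd14 was lower with the combination (22.5 FPKM) than with vehicle (24.8 FPKM), and Fn1 was lowest with amiodarone. Set against vehicle, the sums with amiodarone had ratios of 1.75 for macrophage, 1.89 for monocyte and 6.46 for neutrophil markers, beside 5.45 for Ccl6. The paper counted Iba1-positive macrophages in lung sections, and reports more with amiodarone and fewer when dabigatran was added. The summed macrophage RNA was not lower with both drugs (236) than with amiodarone (220). Stained cells and whole-lung RNA are unlike measures, and with 1 library per group this difference cannot be settled here.

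Ccl5 went with part of another list. The summed FPKM of 7 natural killer cell markers was 51.2 with vehicle, 63.4 with amiodarone, 88.9 with dabigatran alone and 76.4 with both drugs. The sum has the order of libraries found for Ccl5, as do Nkg7, Gzma and Ncr1 singly. Nkg7 and Gzma make up most of the sum and are also the genes found nearest to Ccl5 below. The likeness of the sum to Ccl5 is therefore not separate from theirs. For Ncr1, the order of amiodarone and the combination rests on 68 and 69 reads. With dabigatran against vehicle 5 of the 7 were higher beyond counting error and 0 were lower, beside 13.8% and 12.2% of all genes. With amiodarone against vehicle 1 was higher and 2 were lower, Prf1 at 0.763 (0.583 to 0.998) and Eomes at 0.677 (0.467 to 0.977), and Klrb1c was highest with the combination and Klrk1 with amiodarone. For 7 T lymphocyte markers the sums lay between 51.6 and 54.5, with 1 higher and 0 lower with dabigatran against vehicle. For 8 platelet markers they were 59.5, 39.3, 55.3 and 75.3, lowest in the library with amiodarone alone. Eosinophil markers stood at or below 0.42 FPKM in sum in every library, with Epx not in the table.

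**Figure D4:**
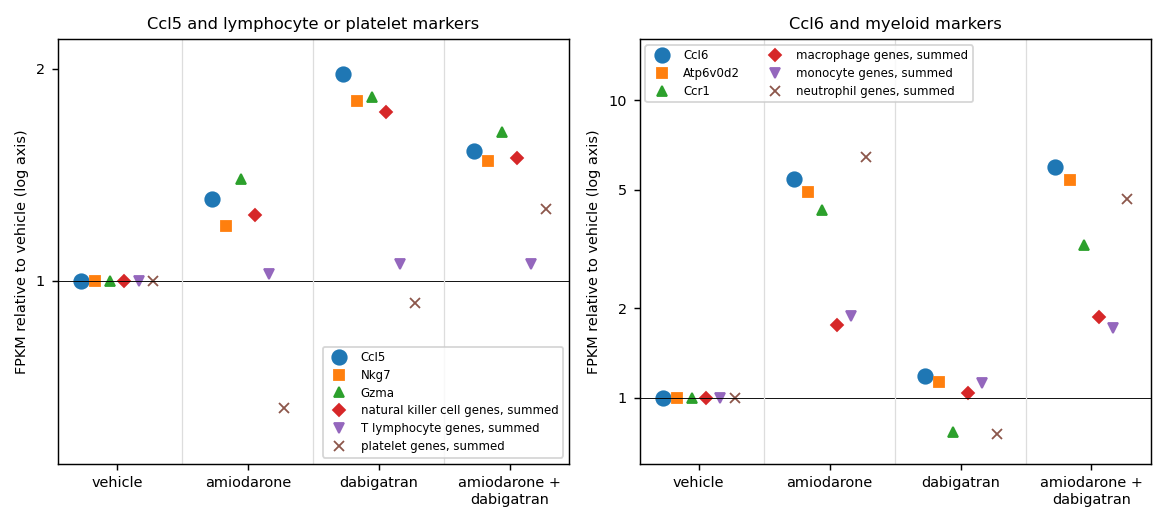
FPKM relative to the vehicle library (log axis) in the 4 libraries, on the left for Ccl5, Nkg7, Gzma and the summed markers of natural killer cells, T lymphocytes and platelets, and on the right for Ccl6, Atp6v0d2, Ccr1 and the summed markers of macrophages, monocytes and neutrophils, with 1 point per library. Ccl5, Nkg7, Gzma and the summed natural killer cell genes are highest with dabigatran alone, and Ccl6 is high in both libraries with amiodarone, as are the summed myeloid genes. Nkg7, Gzma and Atp6v0d2 were found by their likeness to Ccl5 or Ccl6, so their match is by choice.

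Genes with the most similar pattern were found as those with the smallest root mean square distance between log2(FPKM + 1) values, centred on their mean over the 4 libraries, among the 9679 genes that averaged 5 FPKM or more. With 4 points the measure is a description. Nearest to Ccl5 were Nkg7 (distance 0.0600), a granule protein of natural killer and cytotoxic T cells, and Gzma (0.0826), the protease granzyme A of the same cells. Nearest to Ccl6 were Atp6v0d2 (0.119), a subunit of the proton pump of lysosomes, and Apod (0.171), a lipid carrier. Both of the latter distances were larger than any found for the other ligands tested.

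A gene near Ccl9 was AB124611 (0.0514), and for Ccl11 the nearest were Tbc1d8 (0.0348) and Gpr182 (0.0354), the second an endothelial receptor that binds chemokines. Nearest to Ccl17 were Gm46918 (0.0443) and Slfn2 (0.0468), and nearest to Ccl22 were Tbata (0.0261) and Apoc1 (0.0302). The median pattern of the 10 ligands was approached most closely by Pim3 (0.0123) and Pnpla2 (0.0321), and Spsb1 (0.0446) and Inpp5d (0.0450) were also near it. Ccl2, Ccl3, Ccl4 and Ccl7 had too few reads for such a search, which asked for 200 over the 4 libraries.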

How the data were processed

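Left lung of mice was sequenced as poly(A)+ RNA on DNBseq, 1 library per group. The authors mapped reads to GRCm38 p6 with HISAT 2.0.4 and Bowtie2 2.2.5 and estimated counts with RSEM 1.2.8. The deposited table gives an estimated count and a normalized value per gene and library. The unit of that value is not given in the sources used here. The deposited values, which the authors made from the RSEM estimates, were read as FPKM because reads per unit of value differ between libraries as total reads do (1.07, 1.01 and 1.08 times vehicle by both). Another 8 deposited columns are the authors' averages over 2 libraries and were not used.

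Ratios of FPKM, Clopper-Pearson and Poisson intervals at 95%, and counts of genes at least 2-fold apart or beyond counting error were computed with Python 3.11.15, numpy 2.4.6, pandas 2.3.3 and scipy 1.17.1, for genes with at least 20 reads over 4 libraries, with 0 reads set to a floor of 3. Estimated counts were rounded for intervals. The procedure was tested on simulated data. Without replicates no test was made.

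Named are the 10 ligands, up to 3 genes per list with the highest and 3 with the lowest ratio of amiodarone to vehicle among those beyond counting error, and the nearest genes: 5 for the median pattern and 2 for each ligand with at least 200 reads. Some genes under this rule are not reported here. Members and lists were chosen with earlier results of these data known. Alternatives were reads scaled to library totals, median-ratio scaling, pseudocounts of 0.1 and 1, a 1.5-fold threshold, no filter, a mean of 1 FPKM, and 99% intervals.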

Additional observations from a re-analysis of the deposited data

Results flagged for a closer look

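For 3 ligands the same drug went with opposite directions, each beyond counting error, depending on whether the other drug was present. In each case the libraries compared are different ones, and with 1 library per group the difference between the ratios was not tested against the spread between animals. Amiodarone went with more Ccl5 against vehicle, at a ratio of 1.30, and with less Ccl5 when added to dabigatran, at 0.777. Dabigatran went with more Ccl4 against vehicle, at 2.08, and with less when added to amiodarone, at 0.395, values that rest on 13 to 51 reads per library, and the first lay within counting error with a 99% interval (0.853 to 5.56). Dabigatran went with less Ccl9 against vehicle, at 0.713, and with more when added to amiodarone, at 1.16, the second within counting error with a 99% interval (0.991 to 1.36).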

How the results depend on the processing

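No ratio beyond counting error changed direction under any alternative. Of those within it, Ccl22 went from 1.02 to 0.993 for the combination against amiodarone and Ccl11 from 0.993 to 1.001 against dabigatran with median-ratio scaling. All 160 values of single ligands stayed within their main counting intervals, which are wide for ligands of few reads. A pseudocount of 1 moved 4 of them by over 1.5 times, Ccl3 from 5.35 to 3.27 and Ccl4 from 3.92 to 2.55 for amiodarone against vehicle, and Ccl7 from 0.396 to 0.634 for dabigatran against vehicle and from 2.56 to 1.59 for the combination against dabigatran. The 16 median ratios also kept their direction. Counts moved more. Genes at least 2-fold apart numbered 1119 for amiodarone against vehicle, against 321 with a pseudocount of 1, 2580 at 1.5-fold, 2207 without the filter and 544 at a mean of 1 FPKM. For dabigatran against vehicle they were 422, against 20, 1093, 1434 and 63, and 195 with a pseudocount of 0.1. For the combination against amiodarone they were 561, against 60, 1365, 1609, 140 and 298, and against dabigatran 845, against 207, 2017, 1905, 327 and 540, in the same order. Ligands at least 2-fold apart went from 2 to 0, 1 and 4 for dabigatran against vehicle with pseudocounts of 1 and 0.1 and at 1.5-fold, from 1 to 0, 0 and 4 for the combination against amiodarone with reads scaled to library totals, a pseudocount of 1 and at 1.5-fold, and from 3 to 7 against dabigatran at 1.5-fold. Genes beyond counting error went from 3986 to 2520 for dabigatran against vehicle with 99% intervals. Those intervals took in 1 for Ccl11 with amiodarone against vehicle (0.908 to 2.24), Ccl4 (0.853 to 5.56) and Ccl7 (0.110 to 1.19) with dabigatran against vehicle, Ccl9 with the combination against amiodarone (0.991 to 1.36), and Ccl3 (0.953 to 3.54) and Ccl7 (0.874 to 9.08) with the combination against dabigatran. Scaling by the median ratio took Ccl2 (1.78, 1.01 to 3.25) and Ccl22 (1.21, 1.03 to 1.43) beyond counting error for amiodarone against vehicle. No paired analysis was possible because each group has 1 library. Depth limits Ccl2, Ccl3, Ccl4 and Ccl7, with 8 to 80 reads per library.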

Other observations

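The remaining marker lists were compared between the same libraries. Over all genes, 17.8% were higher and 27.8% lower with amiodarone than with vehicle beyond counting error. The summed FPKM of 4 B lymphocyte markers was 162 with vehicle, 55.4 with amiodarone, 136 with dabigatran alone and 98.2 with both drugs, and all 4 were lower with amiodarone than with vehicle beyond counting error. For 9 dendritic cell markers, a known source of Ccl17 and Ccl22, the sums were 53.1, 50.5, 54.9 and 48.5, with 2 higher and 3 lower. With the combination against dabigatran, 5 of 6 fibroblast markers were lower beyond counting error, as were 21.8% of all genes. Fibroblasts are a known source of Ccl2 and Ccl11. With amiodarone against vehicle all 6 markers were lower beyond counting error. Among the 6 was Pdgfra, at 0.931 (0.894 to 0.969) times vehicle with amiodarone. The paper, by qRT-PCR in individual mice, instead reports a large rise of Pdgfra with amiodarone, which dabigatran inhibited. With 1 library per group this difference cannot be settled here. Of 3 airway epithelium markers all 3 were lower with amiodarone, of 6 alveolar epithelium markers 4 were higher and 1 lower, of 4 endothelium markers 3 were higher and 1 lower, and of 3 mast cell markers 0 were higher and 1 lower. The part of these differences in the ligand levels was not tested.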
